A study of Mus musculus with 2 samples.

Results

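The 9 genes described here encode costimulatory molecules of T cells: 3 receptors of the tumour necrosis factor (TNF) receptor family (Tnfrsf4, Tnfrsf9 and Tnfrsf18), 4 TNF family ligands (Tnfsf4, Tnfsf8, Tnfsf9 and Tnfsf11), and the immunoglobulin-type receptors Icos and Cd28. They were taken by gene symbol, and all 9 were among the 31253 genes of both count matrices. The study dissociated tumours of MB49, a bladder cancer line from mice, with enzymes at 37 °C, sorted live cells positive for CD45, the surface marker of blood-derived cells, and sequenced their mRNA with BD Rhapsody. Hosts were chimeras, that is lethally irradiated females that then received bone marrow from males. The series asks how Lcn2, a secreted lipocalin made by neutrophils, bears on neutrophil diversity and function. There were 2 libraries. The library labelled Lcn2-ko came from hosts given Lcn2-KO marrow, and the wt library came from hosts given WT marrow. The labels say that the chimeras mimic loss of Lcn2 in myeloid cells, but marrow also gives rise to lymphocytes, and host T cells can outlast irradiation. Neither the age of the mice nor the number behind each library was given in the sources used here.

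T cells need a signal through their antigen receptor and a second, costimulatory signal. CD28 is bound by CD80 and CD86 on antigen-presenting cells and works in resting T cells, while ICOS, OX40 (Tnfrsf4), CD137 (Tnfrsf9) and GITR (Tnfrsf18) appear or increase after activation. The TNF family receptors signal through TRAF adaptors to NF-kB and favour survival and cytokine production, and in mice several of them are carried at high levels by regulatory T cells, which restrain other T cells. Their ligands are displayed by activated dendritic cells, macrophages and B cells, and some, such as CD30 ligand (Tnfsf8) and RANKL (Tnfsf11), also by activated T cells.

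The library labelled Lcn2-ko held 7788 barcodes with 40959725 unique molecular identifiers (UMIs, which count captured mRNA molecules), against 7974 barcodes with 42069099 UMIs in wt. After filtering, 7240 and 7398 cells stayed in, and 4 barcode sequences occurred in both libraries. Lcn2 was counted in both: neutrophil-like cells held 82 Lcn2 UMIs in the library labelled Lcn2-ko and 205 in wt, or 160 (127 to 199) and 215 (187 to 247) in counts-per-million of the group's UMIs (CPM). Monocyte-like cells gave 31.0 and 2.47 CPM. A tag at the 3' end does not test a deletion elsewhere in the gene, so the genotype stands here as labelled. Although CD45 was sorted for, clusters with little Ptprc, the gene of CD45, made up 23.3% of kept cells in the library labelled Lcn2-ko and 25.2% in wt. Each label had 1 library, so no difference has a replicate check and none was tested. All intervals are 95% intervals that cover counting error only, and UMIs of 1 library share its tissue, digestion and capture.

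Cells were clustered without the 9 members and without the pathway genes listed further on, so that the groups were not shaped by them. Groups were named by what their markers resemble. Regulatory T-like (Treg-like) cells numbered 1064 in the library labelled Lcn2-ko and 1090 in wt, CD4 helper-like cells 267 and 216, CD8-like T cells 989 and 638, and NK-like cells 373 and 250. Antigen-presenting groups were mature dendritic cell-like (mature DC-like) cells, with 84 and 77 cells, cDC1-like cells, with 238 and 430, cDC2-like cells, with 222 and 220, macrophage-like cells, with 240 and 206, and monocyte-like cells, with 303 and 243. A further 5 T cell clusters kept the name of a leading gene. They were the Ube2c cluster of dividing cells, in which Foxp3, the master regulator of regulatory T cells, stood at 551 and 472 CPM, the Il17a cluster, the Cd7 cluster with Trdc and Klra genes, the heat shock-led Hspa1a cluster and the interferon-led Ifit3 cluster. These are the 14 groups compared. In the Ifit3 cluster 2 CD8 T cell markers stood out, but Foxp3 stood there at 189 and 244 CPM. Which kinds of T cell that cluster holds, and in what shares in each library, was not tested.

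Tnfrsf4 encodes OX40, which sustains T cell survival after activation. It lies at chr4:156013843-156016612 on the plus strand (mm10; 7 exons). Treg-like cells gave 1103 CPM (1064 to 1143) in the library labelled Lcn2-ko and 1074 CPM (1035 to 1114) in wt. The Ube2c cluster followed at 924 and 791 CPM, and CD4 helper-like cells at 498 and 431 CPM. In both libraries the order was Treg-like, Ube2c, CD4 helper-like, Ifit3 and Il17a, and the values of each did not overlap those of the next. CD8-like T cells had 87.0 and 71.3 CPM, so Treg-like over CD8-like was 12.7-fold (log2 3.67, 3.49 to 3.84) in the library labelled Lcn2-ko and 15.1-fold (3.91, 3.67 to 4.17) in wt. NK-like cells were near the bottom, at 14.6 and 10.9 CPM, close to the 15.6 and 22.1 CPM of neutrophil-like cells. Treg-like cells were 14.7% of kept cells in each library and held 53.6% and 58.2% of all Tnfrsf4 UMIs.

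Tnfrsf9 encodes CD137, an activation-induced receptor of T and NK cells (chr4:150914562-150946102, plus strand; 8 exons; it overlaps Camta1 on the opposite strand). It was also highest in Treg-like cells, at 2385 CPM (2327 to 2444) in the library labelled Lcn2-ko and 2275 CPM (2218 to 2332) in wt. It reached further down the lymphoid groups than Tnfrsf4 did. CD4 helper-like cells had 975 and 846 CPM, CD8-like cells 716 and 544 CPM, NK-like cells 503 and 515 CPM, and the Cd7 cluster 512 and 363 CPM. Treg-like over CD8-like was 3.33-fold (log2 1.74, 1.67 to 1.80) and 4.18-fold (2.06, 1.97 to 2.16). Mature DC-like cells gave 622 CPM (550 to 702) and 577 CPM (507 to 653), a level not seen in the other dendritic groups, where cDC1-like cells had 28.9 and 38.0 CPM and cDC2-like cells 81.4 and 48.5 CPM. Neutrophil-like cells stood at 80.1 and 77.7 CPM.

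Tnfrsf18 encodes GITR, which is present on regulatory T cells at rest and on other T cells after activation (chr4:156026164-156028895, plus strand; 5 exons; overlapped by the antisense gene Gm16008). Treg-like cells gave 790 CPM (757 to 824) in the library labelled Lcn2-ko and 840 CPM (806 to 875) in wt. The Ube2c cluster, at 561 and 494 CPM, and CD4 helper-like cells, at 457 and 491 CPM, came next. CD8-like cells had 176 and 159 CPM and NK-like cells 136 and 116 CPM. Treg-like over CD8-like was 4.49-fold and 5.30-fold, while Treg-like over CD4 helper-like was 1.73-fold and 1.71-fold, so Tnfrsf18 set these CD4 groups apart less than it set Treg-like from CD8-like cells. Tnfrsf18 and Tnfrsf4 are neighbours on chromosome 4, on the same strand and with 9551 bases and no coding gene between them, and their levels parted in NK-like cells. Tnfrsf18 stood there at 136 and 116 CPM, against 31.3 and 35.7 CPM in neutrophil-like cells, whereas Tnfrsf4 was not above the neutrophil-like value.

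Sequence before a RefSeq transcript start of these 3 receptor genes is shown because they shared their highest group. The stretches come from RefSeq (GRCm38.p6), and 5 of the 9 members had an entry. For Tnfrsf9 and Tnfrsf18 these starts, and the stretches before them, lie inside the gene spans given above, which come from GENCODE and begin further upstream. In the 250 bases before each RefSeq start, both strands were searched for the AP-1 motif TGANTCA, the STAT motif TTCNNNGAA, the NFAT core GGAAAA, the TATA motif TATAAA, the E-box CACGTG and an NF-kB motif. Capitals mark the match. The windows overlap annotated neighbours, namely Sdf4 at Tnfrsf4, Camta1 at Tnfrsf9 and Gm16008 at Tnfrsf18. The Tnfrsf9 lines lie before the downstream of 2 start sites, and the NF-kB line holds 2 overlapping matches.
Tnfrsf4, chr4:156013611-156013694, plus strand, E-box: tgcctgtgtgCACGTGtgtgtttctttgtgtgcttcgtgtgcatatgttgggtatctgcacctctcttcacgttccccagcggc
Tnfrsf9, chr4:150927946-150927975, plus strand, NF-kB: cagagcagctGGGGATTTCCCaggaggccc
Tnfrsf9, chr4:150927969-150927998, plus strand, AP-1: gaggccctgctcagtTGAGTCAcaggtcct
Tnfrsf18, chr4:156026212-156026241, plus strand, STAT motif: ctgctctacacTTCACAGAAggcctttaca
The E-box of Tnfrsf4 began 74 bases before the start and occurs in 6.02% of the 32851 promoter windows of this length. Before Tnfrsf9 the NF-kB matches began 43 and 42 bases and the AP-1 match 15 bases before the start, and 3.90% and 6.75% of windows hold these motifs. The STAT motif of Tnfrsf18 lay 99 bases before the start, and 7.02% of windows hold it. It was also found before Tnfrsf9, 136 bases before the downstream start. The NFAT core was found before Tnfrsf9 (at the upstream start) and Tnfrsf18, as in 20.4% of all windows. No motif searched was present in all 3 genes.

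**Figure D1:**
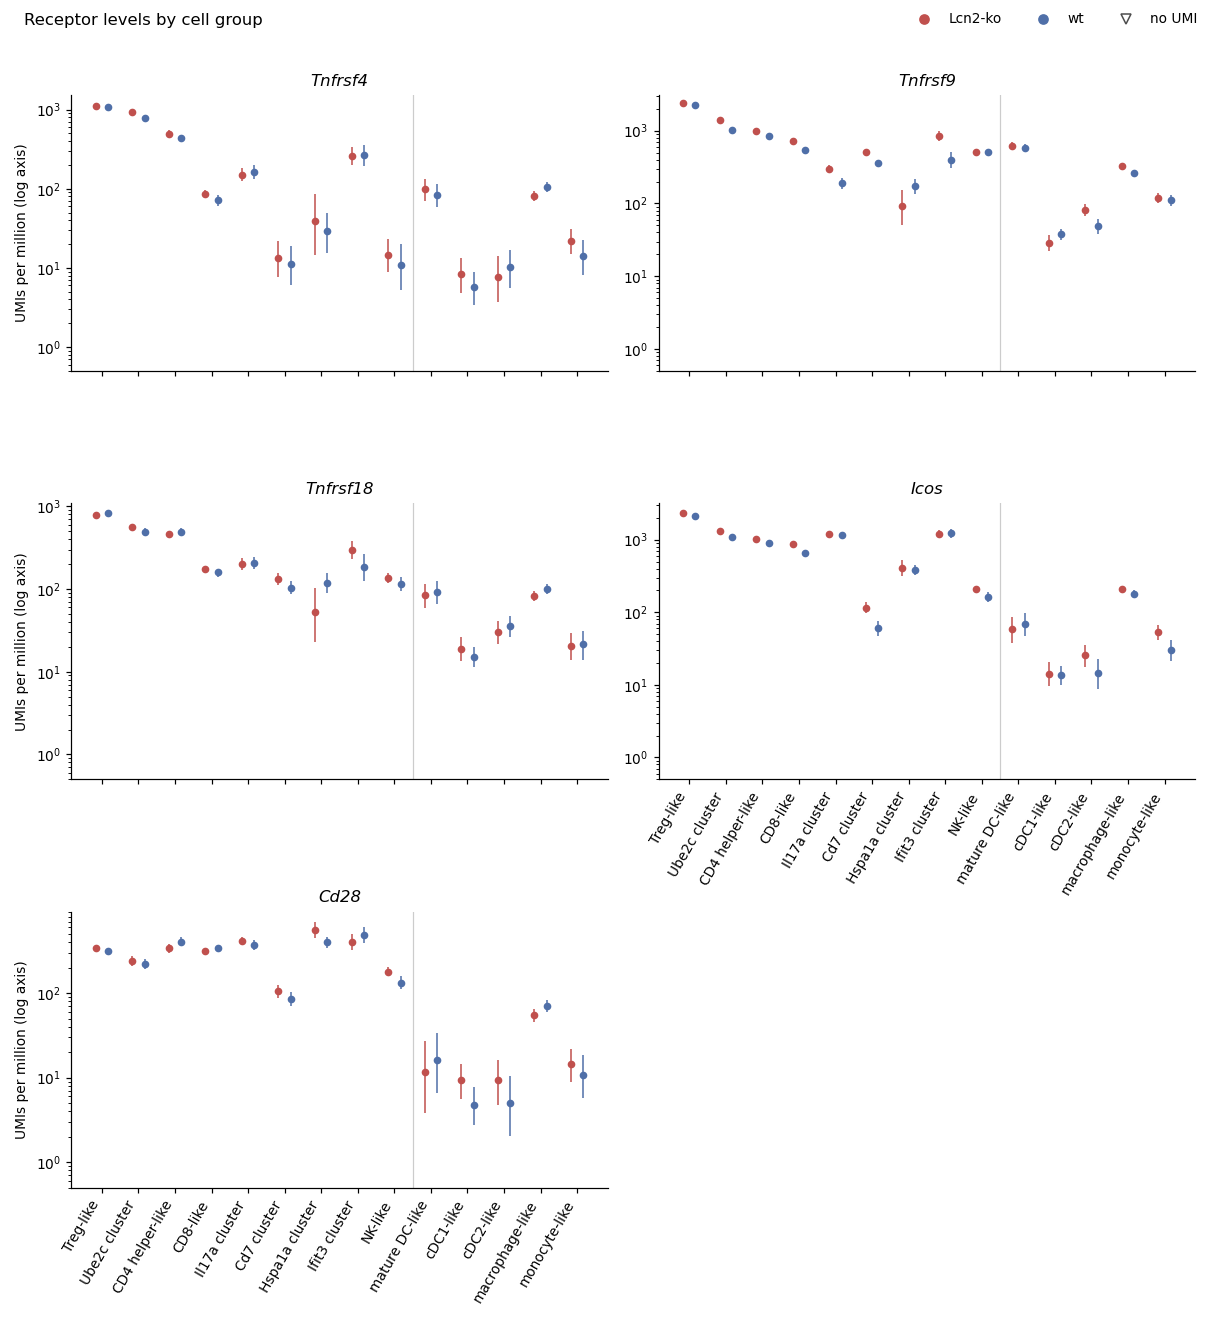
CPM of the cell group's UMIs (log axis) for the 5 receptor genes in 14 cell groups, with the library labelled Lcn2-ko (red) left of wt (blue) in each group and bars for 95% Poisson intervals. Tnfrsf4, Tnfrsf9, Tnfrsf18 and Icos peak in Treg-like cells in both libraries, at 1103 and 1074 CPM for Tnfrsf4, while Cd28 lies between 317 and 556 CPM in the T cell groups other than the Cd7 and Ube2c clusters.

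Icos, the inducible relative of Cd28 that is bound by ICOS ligand, lies at chr1:60977927-61000320 on the plus strand (5 exons). It had 2337 CPM (2280 to 2395) in Treg-like cells of the library labelled Lcn2-ko and 2101 CPM (2047 to 2156) in those of wt. Every other T cell group except the Cd7 and Hspa1a clusters held between 655 and 1301 CPM. The Ifit3 cluster had 1194 and 1219 CPM, the Il17a cluster 1207 and 1144 CPM, and the Ube2c cluster 1301 and 1090 CPM, and these 3 could not be put in order. In the Cd7 cluster Icos was at 115 and 60.5 CPM, below its 207 and 161 CPM in NK-like cells. Treg-like over CD8-like was 2.66-fold in the library labelled Lcn2-ko and 3.21-fold in wt.

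Cd28, which gives the primary costimulatory signal to resting T cells, lies at chr1:60716800-60773359 on the plus strand (4 exons). Unlike the other receptors, it did not stand out in Treg-like cells, where it had 342 CPM (321 to 365) and 317 CPM (296 to 339). CD8-like cells had 318 and 344 CPM, CD4 helper-like cells 338 and 408 CPM, and the Il17a cluster 413 and 371 CPM. Treg-like over CD8-like gave a log2 ratio of 0.11 (-0.02 to 0.23) in the library labelled Lcn2-ko and -0.12 (-0.27 to 0.03) in wt, both intervals including 0. Treg-like over CD4 helper-like gave 0.02 (-0.17 to 0.21) in the library labelled Lcn2-ko and -0.36 (-0.56 to -0.17) in wt, where Cd28 was thus lower in Treg-like cells beyond counting error. The order of the 5 highest groups was not resolved, because the libraries' values overlapped at each step. Within Treg-like cells Cd28 differed between clusters. The cluster led by Il10 and Maf held 442 and 381 CPM, and the cluster led by Il1rl1 held 214 and 244 CPM. Icos followed the same division, at 2642 and 2592 CPM in the Il10-led cluster against 1984 and 1637 CPM in the Il1rl1-led cluster, while Tnfrsf4 and Tnfrsf9 ran the other way. Tnfrsf9 stood at 2191 and 2203 CPM in the Il10-led and at 2666 and 2467 CPM in the Il1rl1-led cluster.

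CD8-like cells were divided too. The cluster led by Klrh1, Cd8a and Pdcd1, which held 522 of 989 cells in the library labelled Lcn2-ko and 296 of 638 in wt, had 917 and 744 CPM of Tnfrsf9. The cluster led by Ly6c2 and Gzmk, with 450 and 338 cells, had 264 and 222 CPM. Tnfrsf4 showed the same order, at 112 and 116 CPM in the Pdcd1 cluster against 31.1 and 14.3 CPM in the Gzmk cluster. Cd28 had the reverse order, at 252 and 234 CPM in the Pdcd1 cluster and 449 and 497 CPM in the Gzmk cluster. The Pdcd1 cluster thus joined higher TNF receptor levels to lower Cd28.

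To read detection per cell, each cell was thinned to 800 UMIs. Median depths before thinning were 2331 and 2254 UMIs in Treg-like cells and 1202 and 1345 in neutrophil-like cells. The neutrophil-like shares are given for comparison, and whether these cells make any of the receptors was not tested. Tnfrsf9 was then seen in 76.6% and 73.5% of Treg-like cells, in 50.8% and 38.9% of CD4 helper-like cells, in 34.7% and 25.2% of CD8-like cells and in 26.95% and 25.3% of NK-like cells, against 6.33% and 4.40% of neutrophil-like cells. Icos was seen in 74.2% and 73.6% of Treg-like cells, against 3.16% and 2.56% of neutrophil-like cells. Tnfrsf4 was seen in 53.2% and 55.6% of Treg-like but in 5.06% and 5.68% of CD8-like cells. Of the 5 receptor genes, 3 or more were detected together in many Treg-like cells: 33.6% and 34.6% of cells held UMIs of 3 genes and 20.7% and 21.7% of 4. In CD8-like cells 6.67% and 5.52% held 3, and 24.0% and 34.5% held none. Detection of members in the same Treg-like cell was close to what their separate shares give: Tnfrsf4 and Tnfrsf18 were found together in 24.7% and 28.6% of cells, where the product of the shares is 23.2% and 27.1%.

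**Figure D2:**
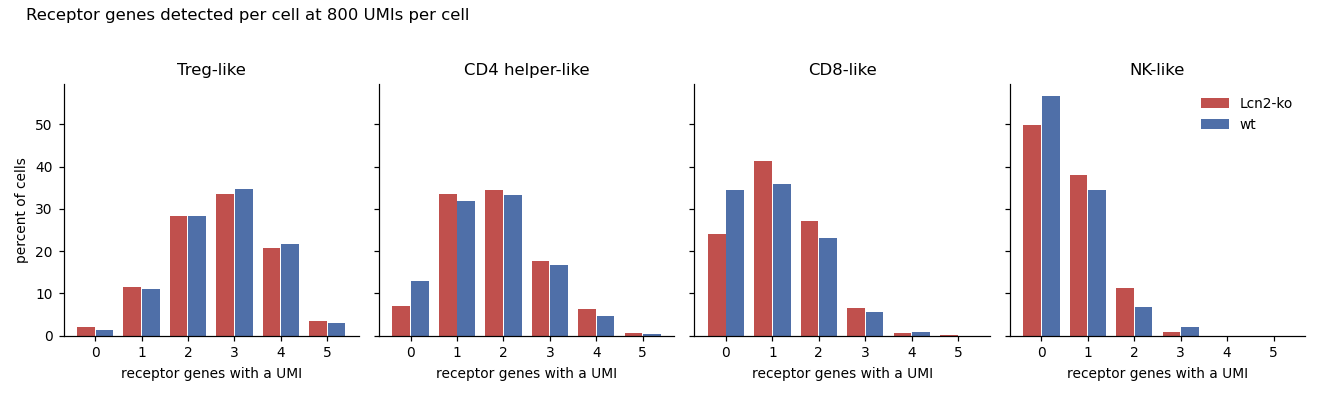
Percent of cells (vertical axis) by the number of the 5 receptor genes with a UMI after thinning every cell to 800 UMIs, in Treg-like, CD4 helper-like, CD8-like and NK-like cells, with the library labelled Lcn2-ko (red) left of wt (blue). Treg-like cells peak at 3 genes, with 33.6% and 34.6% of cells, and NK-like cells at none, with 49.9% and 56.6%.

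Receptor UMIs in cells other than T cells were set beside Cd3e, a subunit of the T cell receptor complex, which should be absent there but stood at 91.7 and 67.6 CPM in NK-like, 97.9 and 69.5 CPM in mature DC-like and 197 and 188 CPM in macrophage-like cells. In each library, the member level that this Cd3e would bring was computed at the ratio pooled over all T cell groups compared. Tnfrsf9 in mature DC-like cells was 7.62 and 10.2 times that level, and in NK-like cells 6.58 and 9.40 times. Tnfrsf18 in NK-like cells was 5.33 and 5.35 times it, and Cd28 9.02 and 8.66 times. Tnfrsf4 in mature DC-like cells was 3.04 and 3.31 times that level, but in wt 11 of its 36 UMIs there came from a single cell. In macrophage-like cells Icos was 1.19 and 1.14 times the level, and in monocyte-like cells 0.907 and 0.639 times. These were close to or under what the Cd3e beside them would bring at the pooled ratio. All these multiples depend on which T cells the RNA came from. Tnfrsf4 had 1103 and 1074 CPM in Treg-like but 87.0 and 71.3 CPM in CD8-like cells. RNA mainly of Treg-like cells would bring more Tnfrsf4 than the pooled ratio gives, and its multiples would be lower. Which T cells the RNA came from was not tested. The part that free RNA or joined cells had in the other values was not tested either.

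Among the ligands, Tnfsf4 (OX40 ligand; chr1:161395409-161418410, plus strand; 3 exons) had high levels in 2 groups of different kinds. Mature DC-like cells gave 189 CPM (150 to 235) in the library labelled Lcn2-ko and 208 CPM (168 to 256) in wt. CD4 helper-like cells gave 217 CPM (188 to 250) and 163 CPM (135 to 195), and the libraries differ in which of these groups was the higher. CD8-like cells followed with 42.3 and 23.4 CPM and NK-like cells with 30.8 and 40.4 CPM. Treg-like cells, the main holders of its receptor Tnfrsf4, had 3.30 and 1.48 CPM. Among dendritic groups Tnfsf4 marked the mature ones, since cDC1-like cells held 3 and 5 of its UMIs and cDC2-like cells 7 and 8. Mature DC-like over cDC2-like was 34.8-fold (log2 5.12, 4.01 to 6.48) and 36.0-fold (5.17, 4.13 to 6.42). In wt, 25 of the 90 Tnfsf4 UMIs of mature DC-like cells came from a single cell. The Ptprc-low clusters had 5.82 and 6.68 CPM. They made up 23.3% and 25.2% of kept cells and held 14.4% and 23.7% of all Tnfsf4 UMIs.

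Tnfsf9 (CD137 ligand; chr17:57105325-57107757, plus strand; 3 exons; overlapped by the lincRNA Gm11110 on the other strand) was the member most evenly spread over antigen-presenting groups. Mature DC-like cells gave 154 CPM (119 to 196) in the library labelled Lcn2-ko and 195 CPM (155 to 241) in wt. Monocyte-like cells had 109 and 195 CPM, cDC1-like cells 95.9 and 157 CPM, macrophage-like cells 81.7 and 113 CPM and cDC2-like cells 81.4 and 95.6 CPM. CD4 helper-like cells, with 93.6 and 111 CPM, were the highest of the T cell groups. The 5 highest groups could not be put in order. Mature DC-like over cDC1-like was 1.60-fold (log2 0.68, 0.26 to 1.09) and 1.24-fold (0.31, -0.04 to 0.64), less than for Tnfsf4.

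Tnfsf8, the ligand of CD30 (chr4:63831308-63861347, minus strand; 4 exons), was highest in CD4 helper-like cells, with 472 CPM (429 to 520) in the library labelled Lcn2-ko and 600 CPM (545 to 659) in wt. The Il17a cluster followed with 244 CPM (210 to 282) and 171 CPM (141 to 205). CD8-like cells had 23.9 and 26.9 CPM and Treg-like cells 10.6 and 11.1 CPM. CD4 helper-like over Treg-like was 44.4-fold (log2 5.47, 4.93 to 6.07) and 54.1-fold (5.76, 5.22 to 6.34). Tnfrsf8, the gene of CD30 itself, had the opposite placing, with 150 and 176 UMIs in Treg-like cells, where wt stood at 65.1 CPM, and 53.7 and 49.5 CPM in the Ube2c cluster, and at no more than 5 CPM in every other group compared.

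Tnfsf11 encodes RANKL, known from bone resorption and from T cell help to dendritic cells (chr14:78277445-78308043, minus strand; 5 exons). CD4 helper-like cells gave 747 CPM (691 to 805) in the library labelled Lcn2-ko and 682 CPM (624 to 745) in wt. They held 51.7% and 50.5% of all Tnfsf11 UMIs while being 3.69% and 2.92% of the cells. The Il17a cluster had 148 and 137 CPM and CD8-like cells 76.3 and 59.8 CPM. Treg-like cells had 17.6 and 16.6 CPM, which makes CD4 helper-like over Treg-like 42.4-fold (log2 5.41, 4.98 to 5.86) and 41.0-fold (5.36, 4.92 to 5.83). Tnfsf8, Tnfsf11 and Tnfsf4 were thus all high in the CD4 helper-like group. After thinning to 800 UMIs, Tnfsf11 was seen in 42.5% and 39.8% of CD4 helper-like cells, Tnfsf8 in 28.9% and 34.3% and Tnfsf4 in 14.7% and 12.5%. Tnfsf8 and Tnfsf11 were found in the same cell in 14.3% and 12.96%, where the product of their shares is 12.3% and 13.6%, and Tnfsf4 and Tnfsf11 in 7.89% and 6.94%, where it is 6.23% and 4.98%.

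Sequence before Tnfsf8 and Tnfsf11 is shown because these ligands shared their highest group. Both stretches are read on the minus strand. That of Tnfsf11 ends at the base before the RefSeq start, and that of Tnfsf8 is the part of its window that lies outside GENCODE exons. The capitals in Tnfsf11 mark a TATA motif on the opposite strand, 32 bases before the start.
Tnfsf8, chr4:63861348-63861534, minus strand: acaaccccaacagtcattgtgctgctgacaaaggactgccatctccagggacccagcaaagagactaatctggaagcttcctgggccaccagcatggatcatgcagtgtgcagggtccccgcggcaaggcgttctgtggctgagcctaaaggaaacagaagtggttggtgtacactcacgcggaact
Tnfsf11, chr14:78308044-78308293, minus strand: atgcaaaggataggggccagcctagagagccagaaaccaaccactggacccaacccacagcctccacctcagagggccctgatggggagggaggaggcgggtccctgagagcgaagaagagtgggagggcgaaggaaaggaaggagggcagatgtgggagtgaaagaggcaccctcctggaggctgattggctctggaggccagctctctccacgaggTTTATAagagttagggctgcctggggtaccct
The window of Tnfsf8 held none of the 6 motifs, and that of Tnfsf11 held the TATA motif, which 12.4% of windows hold.

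**Figure D3:**
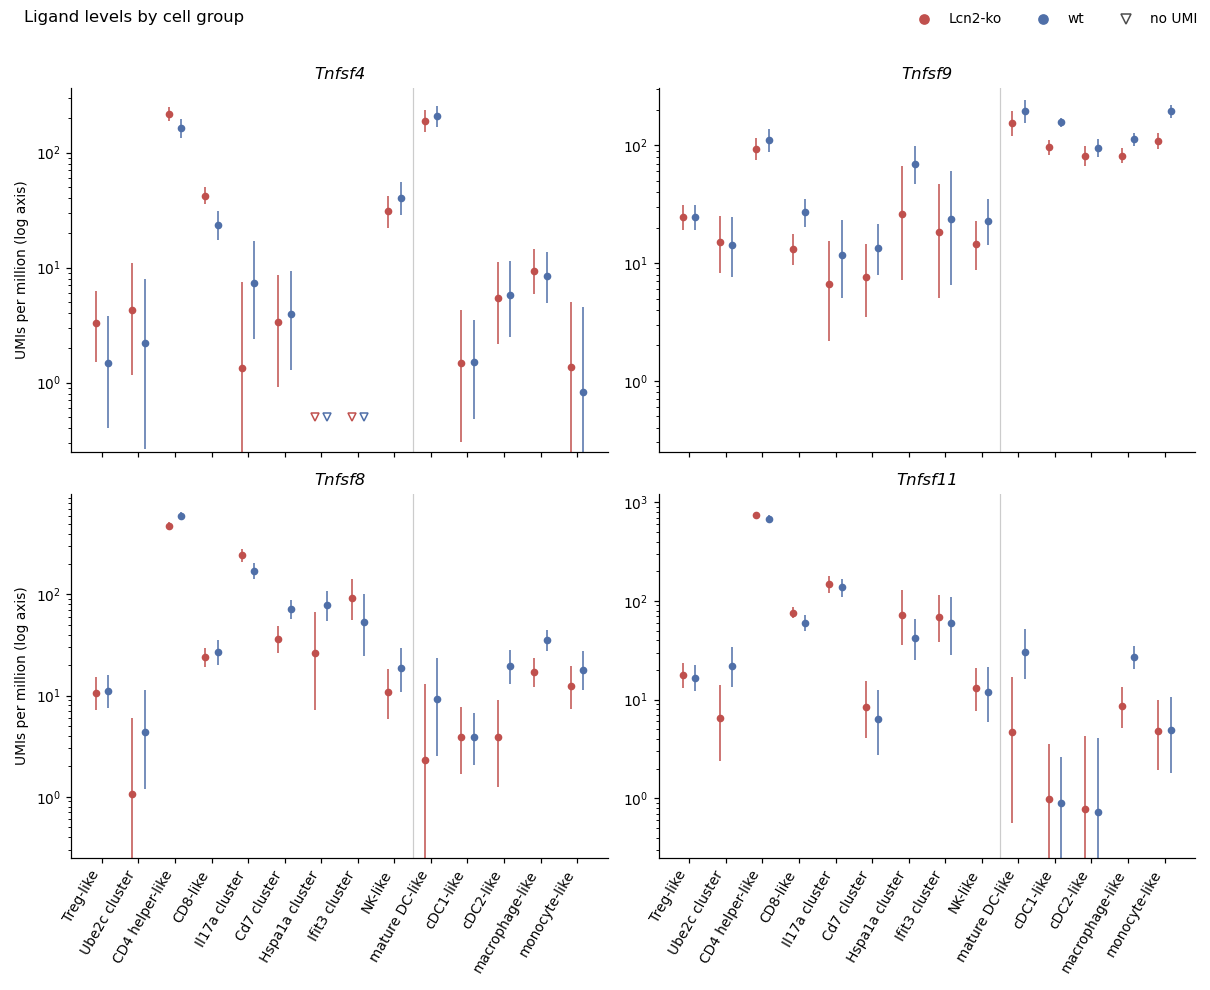
CPM of the cell group's UMIs (log axis) for the 4 ligand genes in 14 cell groups, with the library labelled Lcn2-ko (red) left of wt (blue) and bars for 95% Poisson intervals, some of which run below the axis. Open triangles mark groups with no UMI. Tnfsf8 and Tnfsf11 peak in CD4 helper-like cells, at 747 and 682 CPM for Tnfsf11. Tnfsf4 is high in both CD4 helper-like and mature DC-like cells, and Tnfsf9 is spread over the antigen-presenting groups.

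Tnfrsf11a (RANK) was highest in mature DC-like cells, at 65.3 and 134 CPM, ahead of macrophage-like cells at 27.4 and 29.1 CPM and monocyte-like cells at 26.2 and 23.0 CPM. Tnfrsf11b, the soluble decoy receptor of RANKL, gave at most 3 UMIs in any group. Tnfsf18, the ligand of GITR, gave at most 3 UMIs in any group too. Icosl, the ligand of ICOS, stood at 98.4 and 101 CPM in cDC2-like, 95.6 and 76.4 CPM in mature DC-like and 82.2 and 110 CPM in cDC1-like cells. Of the CD28 ligands, Cd80 had 546 and 628 CPM and Cd86 629 and 605 CPM in mature DC-like cells, each its highest level among the groups compared. Ctla4, the inhibitory receptor that competes with CD28 for them, reached 1965 and 2049 CPM in Treg-like cells, against 452 and 636 CPM in CD4 helper-like cells.

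Genes whose levels most resembled each member were listed by the Pearson r of log2 CPM (with 10 added) over 28 values, 14 groups in 2 libraries, among 6114 genes; these values share their cells and libraries, so r is a description. For Tnfrsf4 they were Il2ra (0.96), Sv2c (0.95) and Ttc39c (0.93), and for Tnfrsf9 Tnfrsf18 (0.90), Hopx (0.89) and Mmd (0.88). Tnfrsf18 was closest to Ctla4 (0.92), Rora (0.92) and Chst2 (0.92), and Icos to Ctla4 (0.96), Rora (0.95) and Cd2 (0.94). Cd28 went with general T cell genes, namely Cd247 (0.97), Thy1 (0.97) and Inpp4b (0.96). Among ligands, Tnfsf4 was nearest to Sema4c (0.88), Lad1 (0.85) and Vsig10 (0.85), and Tnfsf9 to Shtn1 (0.89), Atp6v0e (0.88) and Rnd3 (0.88). Tnfsf8 was nearest to Tnfsf11 (0.86), Gm20400 (0.83) and Csf2 (0.82), and Tnfsf11 to Gm20400 (0.92), Lta (0.88) and Nmrk1 (0.88).

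Between the libraries, members were read in a group where both together held at least 20 of their UMIs, which gave 105 pairs of a member and a group. The library labelled Lcn2-ko was at least 1.5-fold higher in 12 pairs and at least 1.5-fold lower in 15, or 11.4% and 14.3% of pairs. Over all genes read in the same groups, 6.90% of 105793 pairs were that much higher and 8.37% that much lower. The median log2 ratio of the members was 0.10, against -0.01 for all genes.

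In Treg-like cells 0 of 8 members passed 1.5-fold in either direction (background 9.80%, made up of 4.66% higher and 5.14% lower), and Icos had the largest ratio (log2 0.15, 0.10 to 0.21). In CD4 helper-like cells 0 of 9 passed (background 16.8%, made up of 8.17% higher and 8.65% lower). There Tnfsf4 had a log2 ratio of 0.41 (0.08 to 0.75) and Tnfsf8 one of -0.34 (-0.54 to -0.15). In CD8-like cells 1 of 9 was higher (background 5.00%) and 1 lower (background 6.35%). Tnfsf4 was the higher, with 147 UMIs in the library labelled Lcn2-ko and 47 in wt (log2 0.85, 0.37 to 1.36), and within the Pdcd1 cluster alone the ratio was 0.66 (0.14 to 1.21). Tnfsf9 was the lower, with 46 and 54 UMIs (-1.02, -1.62 to -0.43). Under 1.5-fold, Icos was higher by a log2 ratio of 0.43 (0.33 to 0.52), and by 0.44 and 0.41 inside the Pdcd1 and Gzmk clusters. Tnfrsf9 was higher by 0.39 (0.29 to 0.50) over all CD8-like cells, and by 0.30 and 0.25 inside these clusters.

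**Figure D4:**
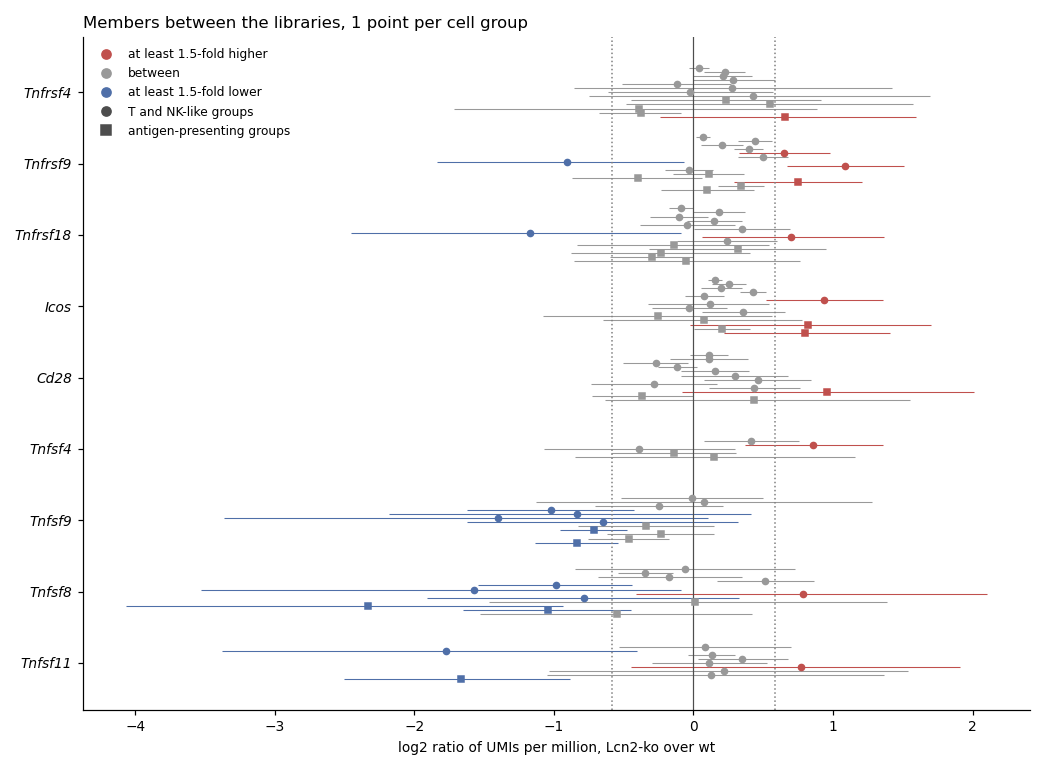
Log2 ratio of CPM, the library labelled Lcn2-ko over wt (horizontal axis), for each member (rows) in each cell group with at least 20 UMIs, with 95% counting intervals; circles are T and NK-like groups and squares antigen-presenting groups, and dotted lines mark 1.5-fold. Tnfsf9 lies at or below 0 in 11 of 12 groups shown and Treg-like and CD4 helper-like circles lie between the lines.

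The Ifit3 cluster, with 83 and 69 cells, had 3 of 7 members higher (background 13.6%) and 0 lower (background 12.6%). Tnfrsf9 was at 844 and 398 CPM (log2 1.08, 0.67 to 1.51) and Tnfrsf18 at 300 and 184 CPM (0.70, 0.06 to 1.37). Tnfsf8, the other, had 20 and 9 UMIs (0.79, -0.41 to 2.10). The Hspa1a cluster, with 62 and 163 cells, had 1 of 7 members higher (background 11.2%) and 4 lower (background 16.5%). Tnfrsf9 and Tnfrsf18 ran the other way there, at 91.6 and 171 CPM (-0.90, -1.84 to -0.07) and at 52.3 and 118 CPM (-1.17, -2.46 to -0.09). Tnfsf8 and Tnfsf9 were lower too. Tnfsf11 was higher (0.77, -0.45 to 1.91), and Cd28 was higher under 1.5-fold (0.47, 0.08 to 0.85). The Cd7 cluster had 1 of 7 members higher (background 6.30%) and 2 lower (background 7.24%). Icos was at 115 and 60.5 CPM (0.93, 0.52 to 1.36) and Tnfsf8 at 36.2 and 71.6 CPM (-0.98, -1.54 to -0.44). Tnfsf9, the other lower member, had 9 and 17 UMIs (-0.83, -2.18 to 0.41). The Il17a cluster had Tnfrsf9 at 296 and 189 CPM (0.65, 0.33 to 0.98; background 7.72% higher, 9.29% lower and 17.0% in either direction). In the Ube2c cluster Tnfsf11 had 6 and 20 UMIs (-1.77, -3.38 to -0.40; background 6.76% higher and 7.58% lower). NK-like cells had 0 of 9 members higher (background 7.40%), and the 2 lower, Tnfsf8 and Tnfsf9 (background 7.36%), had 31 and 40 UMIs over both libraries.

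In all 5 antigen-presenting groups, Tnfsf9 had its lower level in the library labelled Lcn2-ko. In cDC1-like cells it had 95.9 CPM (83.0 to 110) in the library labelled Lcn2-ko and 157 CPM (144 to 171) in wt, from 196 and 526 UMIs (log2 -0.71, -0.96 to -0.48; background 8.20% lower). The difference held in each of 3 cDC1-like clusters, at 143 and 218 CPM in the cluster led by Il12b, 64.5 and 110 CPM in the cluster led by Tlr3 and Hspa1a, and 53.6 and 99.8 CPM in the dividing cluster. In monocyte-like cells it had 109 CPM (93.1 to 128) and 195 CPM (171 to 221; log2 -0.83, -1.13 to -0.54; background 8.41% lower). The cluster led by Ccl17 gave 102 and 196 CPM and the cluster led by Slpi and Inhba 138 and 279 CPM, but the cluster led by Hp and Ly6c2 gave 106 and 116 CPM. Under 1.5-fold were macrophage-like cells (log2 -0.46, -0.75 to -0.18), mature DC-like cells (-0.34, -0.83 to 0.14) and cDC2-like cells (-0.23, -0.62 to 0.15). Tnf, another ligand of the family, was lower as well, at 120 and 212 CPM in cDC1-like cells, 469 and 685 CPM in monocyte-like cells, 344 and 495 CPM in macrophage-like cells, 77.5 and 109 CPM in cDC2-like cells and 58.3 and 190 CPM in mature DC-like cells. Of the other TNF ligands read, Tnf included, 1 of 3 in cDC1-like cells (background 8.20%) and 1 of 9 in macrophage-like cells (8.82%) were at least 1.5-fold lower. Mature DC-like cells had 1 of 1 lower (11.1%) and monocyte-like cells 0 of 4 (8.41%). In cDC2-like cells 0 of 3 were lower (8.21%) and 1 of 3 was higher (7.40%).

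The heat shock gene Hspa1a, which encodes an inducible chaperone, also differed between the libraries. In all 14 groups compared its level was the lower one in the library labelled Lcn2-ko, for example at 903 and 2114 CPM in cDC1-like and 191 and 1066 CPM in monocyte-like cells. Tnfsf9 was not lower in all of them, with log2 ratios of -0.01 (-0.52 to 0.50) in Treg-like cells and 0.07 (-1.13 to 1.28) in the Ube2c cluster. Fos, an immediate early gene, stood at 1842 and 1701 CPM in cDC1-like and 762 and 1041 CPM in monocyte-like cells. Among cells with no Hspa1a UMI, an alternative added after seeing the data, the Tnfsf9 ratio was -0.49 in cDC1-like cells and -0.40 in CD8-like cells, both short of 1.5-fold. The ratio was -0.82 in monocyte-like cells, -1.10 in macrophage-like cells, -0.48 in mature DC-like cells and -0.15 in cDC2-like cells. These are given without intervals and rest on few cells. Cells without an Hspa1a UMI numbered 119 and 54 in the macrophage-like group and 72 and 43 in the mature DC-like group. Whether they differ in depth from the others was not tested. Without the clusters led by heat shock genes, also added after seeing the data, the Tnfsf9 ratio was -0.82 in cDC1-like cells and -0.83 in monocyte-like cells. What part Hspa1a has in these differences was not tested.

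**Figure D5:**
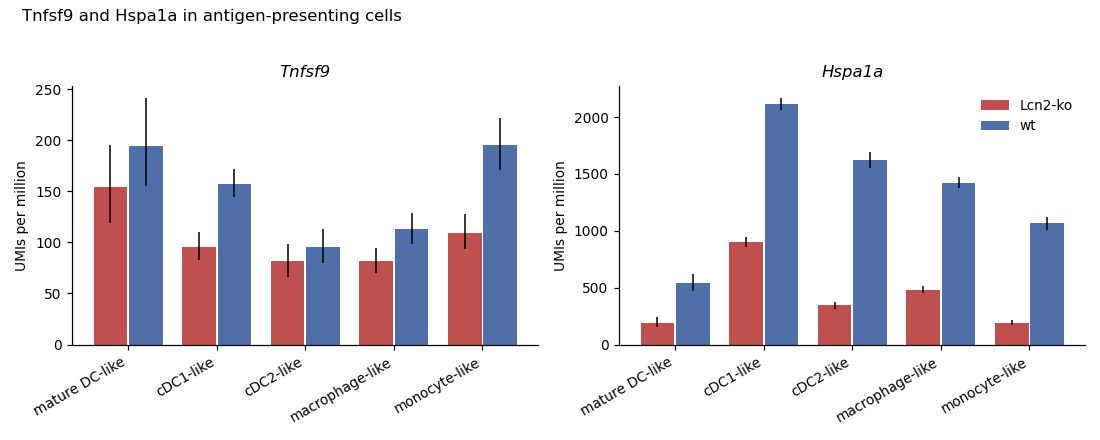
CPM of the group's UMIs for Tnfsf9 (left) and Hspa1a (right) in 5 antigen-presenting groups, with the library labelled Lcn2-ko (red) left of wt (blue) and 95% Poisson intervals. Both genes are lower in the library labelled Lcn2-ko in every group, at 95.9 and 157 CPM for Tnfsf9 and 903 and 2114 CPM for Hspa1a in cDC1-like cells.

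Other members of antigen-presenting groups passed 1.5-fold with few UMIs. In cDC2-like cells Tnfrsf9 had 105 and 67 UMIs (log2 0.75, 0.29 to 1.21; background 7.40% higher), and Tnfsf8 had 5 and 27 (-2.34, -4.07 to -0.94; background 8.21% lower). In macrophage-like cells Tnfsf8 had 38 and 70 UMIs (-1.04, -1.65 to -0.45) and Tnfsf11 had 19 and 54 (-1.66, -2.50 to -0.89); background 4.86% higher and 8.82% lower. Monocyte-like cells had Icos at 77 and 37 UMIs (0.80, 0.22 to 1.41; background 8.04% higher), a level under that of the T cell RNA beside it at the pooled ratio. Icos in cDC2-like cells, Cd28 in cDC1-like cells (background 4.14% higher) and Tnfrsf4 in monocyte-like cells were also past 1.5-fold, with intervals that included 0. These values were also set against the T cell RNA that the Cd3e beside them would bring at the pooled ratio. Tnfsf11 in macrophage-like cells was 0.558 and 2.08 times that level and Tnfsf8 1.61 and 2.83 times. In cDC2-like cells Tnfsf8 was 1.39 and 7.73 times it, Tnfrsf9 1.88 and 1.56 times and Icos 0.557 and 0.449 times. Cd28 in cDC1-like cells was 0.818 and 0.559 times it, and Tnfrsf4 in monocyte-like cells 1.01 and 0.679 times. The pooled ratio fits Tnfsf8 and Tnfsf11 poorly, since Tnfsf8 had 472 and 600 CPM in CD4 helper-like but 10.6 and 11.1 CPM in Treg-like cells. RNA mainly of CD4 helper-like cells would bring more of both ligands, and their multiples would be lower. Which T cells the RNA came from was not tested. Mature DC-like cells had 0 of 6 members past 1.5-fold (background 10.6% higher and 11.1% lower), while their Tnfrsf11a was at 65.3 and 134 CPM (log2 -1.04, -1.75 to -0.37).

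Pathway genes around the members were described from 5 lists, with 34 pairs of a gene and a group higher and 59 lower of 778 read. For the other TNF ligands 4 of 79 pairs were at least 1.5-fold higher and 12 lower (median log2 -0.23), and for the other TNF receptors 7 of 110 were higher and 16 lower (0.00). For the B7 and CD28 family 7 of 93 were higher and 6 lower (-0.02). For the TRAF and NF-kB genes 8 of 296 were higher and 15 lower (-0.02), and for the CD28 and ICOS proximal genes 8 of 200 were higher and 10 lower (-0.02). Over all genes 6.90% were higher and 8.37% lower, with a median of -0.01. In Treg-like cells 0 of 22 TRAF and NF-kB genes passed, with Nfkbia, the NF-kB inhibitor and target, at 2196 and 2483 CPM and Bcl2l1 lowest by ratio (log2 -0.55, -0.75 to -0.35). Tnfrsf1b, the second TNF receptor, was the most abundant other receptor of Treg-like cells, at 634 and 685 CPM. In CD8-like cells Pdcd1, an inhibitory receptor, had 610 and 479 CPM (log2 0.35, 0.24 to 0.46), and Bcl2a1d was the highest TRAF and NF-kB gene by ratio (0.51, 0.27 to 0.75) and Bcl2 the lowest (-0.54, -0.70 to -0.37). In CD4 helper-like cells Lta was lowest among ligands, with 68 and 113 UMIs (-1.03, -1.49 to -0.59). Il2, the T cell growth factor induced through CD28, had 37 UMIs in the library labelled Lcn2-ko and 5 in wt there (2.59, 1.24 to 4.29).

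Donor and host cells were told apart where they carried a UMI of a Y-linked gene or of Xist. Among Treg-like cells 348 cells of the library labelled Lcn2-ko and 357 of wt held Y-linked UMIs without Xist, the type of the male donor marrow, and 168 and 185 held Xist without Y-linked UMIs, the type of the female host; 532 and 532 held neither. Among CD8-like cells the donor type numbered 314 and 289 and the host type 223 and 71. In Treg-like cells Tnfrsf4 was at 1093 and 1040 CPM in donor-type and 1158 and 1130 CPM in host-type cells, and Tnfrsf9 at 2297 and 2248 CPM in donor-type and 2475 and 2079 CPM in host-type cells. In CD8-like cells Tnfrsf9 stood at 647 and 598 CPM in donor-type but at 845 and 355 CPM in host-type cells. Restricted to donor-type cells, its log2 ratio in CD8-like cells was 0.12, against 0.39 over all of them.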

How the data were processed

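The authors deposited, per the labels, whole-number counts of unique molecular identifiers for each gene and cell of 2 libraries. The submitters' processing notes list Cell Ranger and mm10. The tool's version and role, and whether counting used strand, are not given in the sources used here. Cells with under 200 genes or over 20% mitochondrial UMIs were left out, as were the top 4% by Scrublet score in each library, since the caller itself marked 1 cell in each. Counts were scaled to 10000 per cell and clustered with scanpy 1.11.5 and leidenalg 0.10.2 (2000 variable genes, 30 components, 15 neighbours, resolution 1), and lymphoid and myeloid cells were clustered again. A cluster took a name where at least 3 markers of a list stood out, and otherwise that of its leading gene. Limits on Ptprc (100 CPM) and on Cd3e in NK-like (500 CPM) and dendritic (100 CPM) clusters, the rule for second classes and ties, and the doublet share were set after seeing the data. The members and lists were chosen with earlier results of these data known. UMIs were summed per group and library, with Poisson intervals for levels, conditional binomial intervals for ratios and Clopper-Pearson intervals for shares, all exact and at 95%. A member was read in a group with at least 20 UMIs over both libraries and counted past 1.5-fold. All members and, from each pathway list and group, the genes of highest level and of highest and lowest ratio could be named. The ratio script was checked on simulated data. The alternatives tried are given at the end.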

Additional observations from a re-analysis of the deposited data

Results flagged for a closer look

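Effects of opposite sign between cell groups were found in 4 cases, each with the Hspa1a cluster as the lower side, and the differences were not tested. For Tnfrsf9 the log2 ratio of the library labelled Lcn2-ko over wt was 0.65 in the Il17a cluster and -0.90 in the Hspa1a cluster, a gap of 1.55. The gap was 1.99 between the Ifit3 cluster (1.08) and the Hspa1a cluster, and 1.65 between cDC2-like cells (0.75) and the Hspa1a cluster. For Tnfrsf18 it was 1.87, between 0.70 in the Ifit3 cluster and -1.17 in the Hspa1a cluster. The Hspa1a cluster held 62 cells in the library labelled Lcn2-ko and 163 in wt, so its ratios rest on few UMIs (14 and 77 for Tnfrsf9, 8 and 53 for Tnfrsf18).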

How the results depend on the processing

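No paired analysis was possible because each label has 1 library. Of the 105 member pairs, 12 were at least 1.5-fold higher and 15 lower, and of 778 pathway pairs 34 and 59. With no cell left out as a doublet, 16 pathway pairs were higher and 39 lower of 592 read, and Tnfrsf4 in monocytes turned to -0.000192, against 0.66. With a mitochondrial limit of 10%, 6 member pairs of 85 and 17 pathway pairs of 639 were higher. With members kept among the variable genes, 16 pathway pairs of 622 were higher. With T cell subsets set by UMI gates (3 groups), 3 member pairs of 27 were higher, against 1 in the main setting. There 5 pathway pairs of 196 were lower, against 11. At 50 UMIs or more, 8 of 83 member pairs were higher and 8 lower, and 20 of 631 pathway pairs were higher and 27 lower. With no minimum, 98 of 1021 pathway pairs were higher and 154 lower. At 2-fold, 1 of 105 member pairs was higher and 8 lower, and 7 of 778 pathway pairs were higher and 14 lower. No share over all genes is given for any of these alternatives, so their counts stand without a background. Some alternatives read fewer pairs because groups stayed unnamed there. Tnfsf9 in monocyte-like cells stayed past 1.5-fold (-1.54 to -0.62). Of the member ratios past 1.5-fold, these fell short in at least 1 alternative, given with their range: Icos in monocyte-like cells (0.10 to 1.35), the Cd7 cluster (0.09 to 1.04) and cDC2-like cells (0.04 to 1.74), Cd28 in cDC1-like cells (0.55 to 1.09), Tnfrsf4 in monocyte-like cells (-0.000192 to 0.94), Tnfrsf9 in the Il17a cluster (0.44 to 1.42), cDC2-like cells (0.24 to 1.18) and the Hspa1a cluster (-1.52 to -0.58), Tnfrsf18 in the Ifit3 cluster (0.53 to 1.23), Tnfsf4 in CD8-like cells (0.50 to 1.23), Tnfsf8 in the Ifit3 cluster (0.35 to 1.05), Tnfsf11 in the Ube2c cluster (-1.94 to -0.51) and the Hspa1a cluster (0.50 to 1.22), and Tnfsf9 in cDC1-like (-0.92 to -0.49), CD8-like (-1.41 to -0.40) and NK-like cells (-1.07 to -0.38). The Treg-like over CD8-like ratios of Tnfrsf4, Tnfrsf9, Tnfrsf18 and Icos stayed past 1.5-fold in all 8 alternatives run. The highest group was the same for 6 of 9 members with no cell left out as a doublet. It was the same for 7 with a mitochondrial limit of 10%, for 7 after thinning to 800 UMIs, and for 8 or 9 otherwise. Of member ratios and contrasts between groups, 35 moved and 67 stayed after thinning. With UMI gates 20 moved and 34 stayed. Mature DC-like over cDC1-like for Tnfsf4 in the library labelled Lcn2-ko had no value after thinning to 800 UMIs, with 0 UMIs in cDC1-like cells. Where a value moved, the cause was not tested. Alternatives without heat shock-led clusters or with cells lacking Hspa1a UMIs were chosen after seeing the data. Depth limits several ligand ratios: that of Tnfsf8 in cDC2-like cells rests on 5 and 27 UMIs.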
